A study of Caenorhabditis elegans with 2 samples.

Results

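The PHP-3 peaks described here are those on autosomes whose summits lay in distal intergenic sequence, away from protein-coding genes and their promoters. They were chosen by position only. The summit, the position of the highest point named in the peak list, had to lie outside every protein-coding gene body, outside every window from 1000 bp upstream to 200 bp downstream of a protein-coding 5′ end, and more than 300 bp from any tRNA gene. Of 3559 peaks in the list made from both replicates, 627 met these limits and are called members here, or 17.6% (exact binomial 95% interval 16.4 to 18.9) of all peaks and 23.1% (21.5 to 24.7) of the 2720 peaks on autosomes. A further 27 summits met the limits on genes but stood within 300 bp of a tRNA gene, and were left out. The data are peaks of chromatin immunoprecipitation followed by sequencing (ChIP-seq), with an antibody against GFP, in 2 biological replicates of 1 group. The worms were Caenorhabditis elegans strain RW12213, which carries the allele php-3::TY1::EGFP::3xFLAG, a tag inserted at the php-3 gene on chromosome III with CRISPR; they had been synchronised by starvation at the L1 stage after bleaching and were taken as L4 larvae at 48 hours. Whole larvae were used, so the cell types that gave each peak cannot be told apart. No untagged worms or other antibody were analysed here, so the background of the antibody at these sites is not known. Nothing in the labels says whether the replicates were separate cultures, and the spread between them may be technical. With 1 group there is no contrast, and peaks are not replicates, so values are given as a description with no test. Intervals cover the counting of peaks only, and read depth is unknown.

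PHP-3 is a Hox protein of the posterior group, related to Abdominal-B of flies, and is encoded beside its close relative nob-1; the pair is known for its part in forming the posterior end of the embryo and the tail. Hox proteins bind short AT-rich sequences through the homeodomain, often together with PBC proteins (ceh-20 in worms) and Meis proteins. In the compact worm genome many regulatory sequences lie directly upstream of genes, and those in longer intergenic stretches include enhancers, non-coding RNA genes and repeats. GATA factors are known as regulators of intestinal and epidermal genes in worms, and E-boxes are bound by basic helix-loop-helix proteins.

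The sequences below show what stood under the peaks that the results turn on. Each is the plus strand, from 50 bp before to 50 bp after the summit, on build ce11 (WBcel235), read from the RefSeq genome. Capitals mark matches on either strand to 4 motifs: posterior Hox in its loose form, GATA, the E-box and Meis. The strict posterior Hox form is TTTATGA with either A or G in its last place. The loose form adds TTTATTA and also TTTACGA, again with either A or G in the last place. GATA is TGATAA with either T or A in its first place, the E-box is CACGTG, and Meis is TGACAG. The peak upstream of tlp-1, which encodes a zinc-finger protein needed for the shape of the tail tip, is shown as the strongest, at chrIV:13708068-13708168. The 2 peaks upstream of nob-1 found in both replicates' own lists are at chrIII:12089076-12089176 and chrIII:12094326-12094426. The window of klf-1, a Krüppel-like factor gene, is at chrIII:2870348-2870448. That of Y54G2A.49, shown because it holds both posterior Hox and GATA matches, is at chrIV:2855469-2855569, and that of bcf-1, which holds GATA and E-box matches, is at chrV:6411322-6411422. The windows of asp-13 and asp-1, aspartyl protease genes, are at chrV:8651502-8651602 and chrV:19053395-19053495. The window of irld-18, farthest of all from a protein-coding gene, is at chrIV:14594427-14594527. That of fos-1, a Fos-family transcription factor gene, is at chrV:6000368-6000468 and is shown because none of the 4 motifs matched.
tlp-1: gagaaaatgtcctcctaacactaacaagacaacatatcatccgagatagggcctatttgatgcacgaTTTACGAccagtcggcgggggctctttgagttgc
nob-1, nearer: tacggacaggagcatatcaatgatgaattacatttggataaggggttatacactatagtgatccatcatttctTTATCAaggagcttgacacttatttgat
nob-1, farther: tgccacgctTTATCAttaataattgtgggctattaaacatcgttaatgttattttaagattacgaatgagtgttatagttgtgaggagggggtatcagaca
klf-1: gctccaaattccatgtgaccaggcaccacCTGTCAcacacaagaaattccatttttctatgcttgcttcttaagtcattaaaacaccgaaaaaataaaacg
Y54G2A.49: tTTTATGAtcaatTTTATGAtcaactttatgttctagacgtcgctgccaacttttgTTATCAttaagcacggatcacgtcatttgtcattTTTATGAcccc
bcf-1: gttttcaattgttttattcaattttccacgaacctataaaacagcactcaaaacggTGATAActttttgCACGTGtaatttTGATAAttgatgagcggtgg
asp-13: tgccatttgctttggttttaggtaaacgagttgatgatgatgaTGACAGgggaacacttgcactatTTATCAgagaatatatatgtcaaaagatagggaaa
asp-1: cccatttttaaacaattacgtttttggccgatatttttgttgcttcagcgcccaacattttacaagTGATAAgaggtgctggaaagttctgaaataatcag
irld-18: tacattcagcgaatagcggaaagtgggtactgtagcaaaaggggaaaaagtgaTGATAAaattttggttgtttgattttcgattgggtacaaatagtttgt
fos-1: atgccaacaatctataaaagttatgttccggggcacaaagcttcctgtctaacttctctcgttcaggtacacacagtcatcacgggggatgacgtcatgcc

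The windows differed in what they held near the summit. In the bcf-1 window, GATA matches started 6 bp and 31 bp after the summit and the E-box lay between them, starting 19 bp after it. The Y54G2A.49 window held 3 matches to the strict posterior Hox form TTTATGA, which started 49 bp and 37 bp before and 40 bp after the summit, and a GATA match that started 6 bp after it. At irld-18 the GATA match started 3 bp after the summit, and at asp-13 and asp-1 it started 16 bp after. At tlp-1 the loose match TTTACGA began 17 bp after the summit, and the window held no match to the strict form or to GATA as spelt here. A match is a string of letters and does not show that a protein bound there.

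The strongest distal peaks stood near genes of many kinds. The signal value, as the authors' deposited list gives it for each peak, was 1143 at tlp-1, with 482 in replicate 1 and 580 in replicate 2. The tlp-1 summit lay 4036 bp upstream of the annotated 5′ end. Then came 2 peaks past the 3′ end of K08F11.1 on chromosome IV. The first lay 710 bp downstream of that gene's 5′ end, at 725 (299 in replicate 1 and 429 in replicate 2), and the other 3173 bp downstream, at 660 (291 and 368). The convergent genes clec-85 and Y54G2A.16 flanked the summit assigned to Y54G2A.49, at 633 (268 and 349), with their ends 63 and 76 bp away. Replicate 2 was the higher at each of these 4 peaks. The 41 bp around the K08F11.1 summit at 725 occurs 5 times in the genome, alone among the 20 strongest members in being repeated, and an ncRNA gene lay within 300 bp of it. A pseudogene lay within 300 bp of the summit at 660, and a piRNA gene within 300 bp of the tlp-1 summit. Of the other 17 of the 20 strongest, the summit of bcf-1 alone had a lincRNA, miRNA, ncRNA, piRNA, snRNA, snoRNA or pseudogene annotation within that distance, and lay inside an ncRNA gene.

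Several of the 20 strongest members found in both own lists lay upstream of protease, enzyme and transporter genes. The summit upstream of asp-13 stood 8359 bp from its 5′ end, at 506 (233 in replicate 1 and 249 in replicate 2). The gene cpz-1, which encodes a cathepsin-like protease, had a summit 1092 bp upstream at 498 (233 and 265). The nucleoside transporter gene ent-4 had one 1481 bp upstream at 471 (200 and 247). These are values near to each other, and the replicates' order was the same in all 3. The AMP deaminase gene ampd-1 had a summit 1249 bp upstream at 457 (190 and 264). The sodium-proton exchanger gene nhx-2, expressed in the intestine, had one 1835 bp upstream at 430 (192 and 246), although the neighbouring gene B0495.5 lay 142 bp from it. Summits were also nearest to K07D4.2 (568), Y39B6A.1 (552), bcf-1 (527), Y22D7AR.6 (510), txt-19 (493), R12B2.7 (489), klf-1 (488), idpb-4 (445), Y43F8B.24 (431), C08E8.3 (410) and irld-18 (403). Of the 20, 17 lay upstream of the nearest 5′ end, 7 lay between divergent genes and 11 between genes in tandem. Of all 627 members, 439 lay upstream, 180 between divergent genes and 370 between genes in tandem. Their distance to the nearest 5′ end had a median of 2430 bp and ran from 710 to 13438 bp. Replicate 2 gave the higher value at 18 of the 20, with ratios to replicate 1 of 0.902 to 1.49.

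Over all members the signal value ran from 2.34 to 1143, with a median of 123 and quartiles of 95.5 and 181. The median was 125 for the 1102 autosomal promoter peaks, 107 for the 868 autosomal gene body peaks and 120 for the whole list. In the replicates' own ranked lists the members' median was 61.4 in replicate 1 and 66.9 in replicate 2, each taken from the highest overlapping peak. For the 615 members with a value in both, the median ratio of replicate 2 to replicate 1 was 1.12, against 1.14 over the whole list. Distal peaks were thus close to promoter peaks in signal value, and the small offset between replicates was shared with other peaks.

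**Figure D1:**
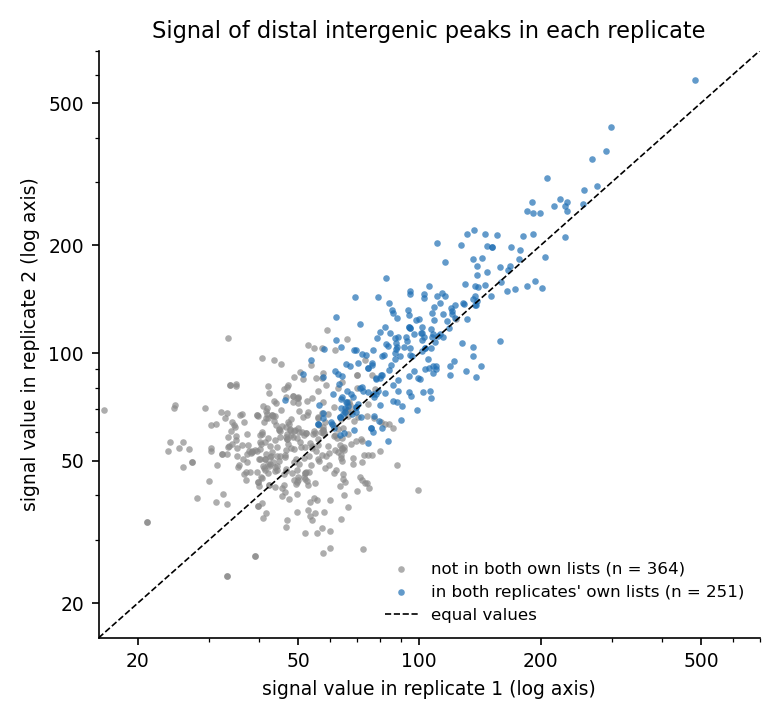
Signal value in replicate 1 (x axis) against replicate 2 (y axis), both logarithmic, for the 615 distal intergenic peaks with an overlapping ranked peak in each. Each point is a peak, coloured by whether both replicates' own thresholded lists hold it (251 do), and the dashed line marks equal values; tlp-1 stands at the upper right, and the peaks held by both lists lie at the higher values.

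Support from the replicates taken alone was as frequent as elsewhere in the list, or a little more so. Of the 627 members, 251 (40.0%, interval 36.2 to 44.0) overlapped a peak in both replicates' own thresholded lists, against 35.3% of all peaks. Replicate 1's list alone held a further 57, replicate 2's alone 102, and neither held 217. The conservative list, which the authors also deposited, held the summit of 530 members (84.5%), against 83.6% of all peaks. Whether a member was in both lists went with its signal value. Of the 178 members in the highest quartile of the whole list's signal values, 174 (97.8%) were held by both, and of the 152 in the lowest quartile 6 (3.95%) were; signal and own lists come from the same reads, so this relation is in part built in. Among promoter peaks 37.7% (34.8 to 40.6) were in both, and among gene body peaks 26.8% (23.9 to 29.9).

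Most members lay within a few kilobases of a gene start. The distance from the summit to the nearest protein-coding 5′ end had a median of 2241 bp, with quartiles of 1439 and 3607 bp and a range of 331 to 19415 bp. The nearest gene body was closer, at a median of 1381 bp and as little as 3 bp. So a summit called distal here is far from a 5′ end but can be beside the end of a gene. In all, 250 members stood 1 to 2 kb from the nearest 5′ end, 281 at 2 to 5 kb, 67 at 5 to 10 kb and 14 beyond 10 kb, while 15 stood nearer than 1 kb, all of them past the 3′ end of a short gene. Of the 627, 439 (70.0%, 66.3 to 73.6) lay upstream of that 5′ end and 188 downstream. How the sequence in which a summit could qualify divides by side or distance was not computed. Whether these shares are particular to the peaks is therefore not known. Upstream counts per 0.5 kb fell with distance beyond the limit of the promoter window, as the plot of distances shows. Peaks inside that limit are no members and are not plotted. Median signal changed little with distance, being 125 at 1 to 2 kb, 123 at 2 to 5 kb, 114 at 5 to 10 kb and 138 in the few beyond 10 kb.

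**Figure D2:**
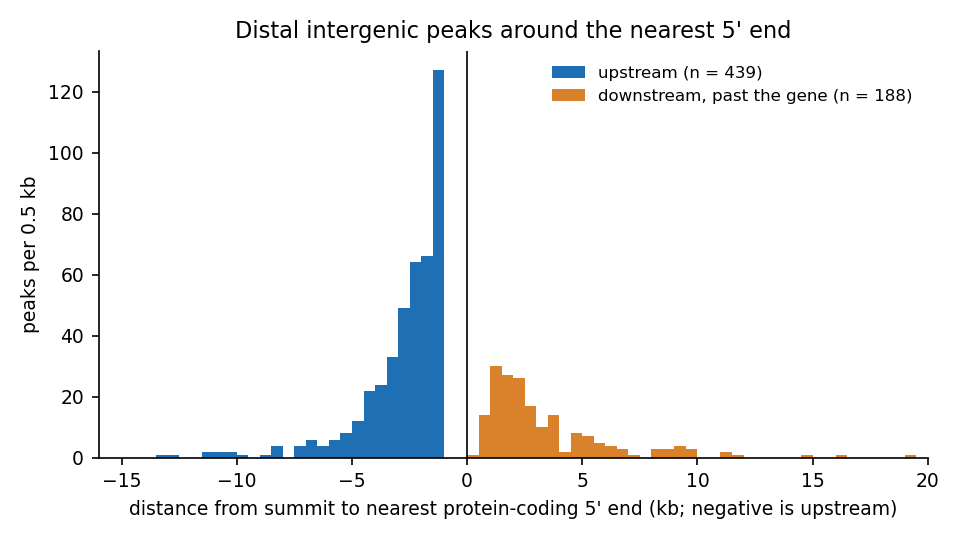
Number of distal intergenic peaks per 0.5 kb (y axis) by distance of the summit from the nearest protein-coding 5′ end in kb (x axis, negative upstream). Blue marks the 439 upstream members and orange the 188 downstream of the 5′ end and past the gene. The gap from 1 kb upstream is set by the selection, and upstream counts fall with distance beyond it. Downstream counts rise from 15 under 1 kb to 57 at 1 to 2 kb before they fall.

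The members at the edges of the selection had ordinary signal values. The 3 just beyond the promoter limit lay 1003, 1004 and 1012 bp upstream of mml-1, smd-1 and T25E12.14, with signal values of 93.7, 161 and 134. The 3 just inside it, at 998, 994 and 989 bp upstream of rsy-1, acr-7 and C06A5.3, had 104, 204 and 91.3. At the tRNA limit, the nearest members stood 352, 357 and 1117 bp from a tRNA gene, at 137, 123 and 111, and the nearest summits left out stood 232, 188 and 184 bp away, at 52.4, 101 and 7.86.

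Intergenic space was not filled evenly. The sequence in which a summit could qualify came to 19.3 Mb, or 23.4% of the autosomes, and held 32.4 summits per Mb. Autosomal promoter windows held 60.1 per Mb, and the autosomes as a whole 32.9. Space between genes in tandem held 370 members, or 35.8 per Mb, space between divergent genes held 180, or 32.4 per Mb, and space between convergent genes held 76, or 22.3 per Mb. Convergent gaps thus made up 17.6% of the qualifying sequence but held 12.1% (9.67 to 14.9) of the members. The convergent members were not weaker, with a median signal of 124 against 124 in tandem and 120 in divergent gaps.

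Members per Mb of qualifying sequence differed more between chromosomes than between orientations. Chromosomes I, II and III held 40.9, 40.0 and 43.4 members per Mb of qualifying sequence, whereas V held 27.1 and IV 21.6. Chromosomes I to V held 115, 143, 121, 108 and 140 of the 627 members, and 462, 581, 521, 496 and 660 of all 2720 autosomal peaks. The spread of members over chromosomes was thus near that of the whole list. Chromosome IV held 25.9% of the qualifying sequence and 108 members (17.2%, 14.3 to 20.4). Its members had the highest median signal, 137 against 118 to 125 on the others, and 50.9% of them were in both own lists against 30.4% on chromosome I and about 40% on the rest. Within chromosomes, the central of 3 equal parts held 227 members (36.2%, 32.4 to 40.1) and 30.4% of the qualifying sequence. That part held 40.1% of all autosomal peaks, 41.7% of autosomal promoter peaks and 42.5% of autosomal gene body peaks.

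The tagged gene's own neighbourhood held 5 members, of which 4 lay upstream of nob-1. The nearer pair had summits 3431 and 4810 bp upstream of its annotated 5′ end, with signal values of 120 (71.2 in replicate 1 and 45.0 in replicate 2) and 233 (122 and 94.9). The farther pair stood 10060 and 11490 bp upstream, at 172 (106 and 78.5) and 138 (70.1 and 79.7). In 3 of the 4, replicate 1 was the higher, unlike most members. Those at 4810 and 10060 bp were in both own lists, and the others in replicate 1's only. For scale, the promoter peak of nob-1, 587 bp upstream and no member, had 803 in the same list. The member beside php-3 lay 3634 bp downstream of its 5′ end and 296 bp past the gene, at 84.0 (32.8 and 65.8), and its window was wholly masked as repeat. The tag itself was inserted at php-3, and the part this has in peaks there was not tested.

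Besides nob-1, php-3 and tlp-1, 2 other genes of the Hox and tail lists were nearest to a member. The PBC gene ceh-20 had a member 1733 bp upstream, which also lay 126 bp past the gene F31E3.2. That member had a signal value of 8.82 and stood 209 bp from a summit that is no member. Its replicate values, 62.2 and 47.0, may come from that neighbour's ranked peaks. The gene egl-27, needed for the polarity of tail cells, had a member 8037 bp upstream at 123 (52.6 and 67.3), in neither own list. In all, 5 genes of these lists on autosomes, nob-1, php-3, ceh-20, tlp-1 and egl-27, were nearest to a member. That was 3 of 10 Hox genes and cofactors and 4 of 13 tail and rectal genes, with nob-1 and php-3 in both lists, against 3.04% of all 17242 autosomal protein-coding genes. The lists were made with earlier results of these data known, and the intergenic length beside each gene was not matched. The number was 3 in the conservative list, 3 in replicate 2's list (without replicate 1) and 2 in replicate 1's (without replicate 2).

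Of the Wnt pathway list, 5 of 24 autosomal genes (20.8%) were nearest to 6 members, beside 3.04% of all autosomal protein-coding genes; intergenic length was not matched here or in the lists that follow. The Frizzled receptor gene mom-5 had a summit 1792 bp upstream at 195 (80.0 in replicate 1 and 115 in replicate 2). For pop-1, which encodes the TCF factor of the pathway, the summit stood 1411 bp upstream at 135 (80.8 and 61.8). Both of these were in both own lists. The Frizzled gene mig-1 had its stronger summit 4138 bp upstream at 120 (48.5 and 72.8), and the casein kinase gene kin-19 one 1824 bp upstream at 89.8 (44.4 and 54.7); neither was in an own list. The median signal of the 6 was 105, below the members' median of 123.

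The tissue and process lists ranged from no gene to shares near that of the Wnt list, beside the same 3.04% of all genes. Of the intestinal list, 2 of 14 genes (14.3%) were nearest to 3 members: asp-1 with a summit 2693 bp upstream at 160 (72.1 and 80.2) and another 1616 bp downstream of its 5′ end at 110, and the intermediate filament gene ifb-2 at 97.5, with no overlapping ranked peak in replicate 1. Of the vulva and uterus list, 3 of 15 genes (20%) were nearest to 5 members. The summit upstream of fos-1, which acts in anchor cell invasion, lay 3183 bp away at 367 (151 and 198), and that of lip-1, a phosphatase gene that limits MAP kinase signalling, 3728 bp away at 156 (68.6 and 75.3). The Notch ligand gene dsl-1 had one 3959 bp upstream at 109 (57.8 and 60.9). Of the stress and insulin list, 3 of 18 genes (16.7%) were nearest to a member. These were hsp-16.48 (124) and hsp-16.1 (97.2), small heat shock genes, and xbp-1 (105), a factor of the unfolded protein response. The hsp-16.1 summit lay 55 bp from the snRNA gene T27E4.11. In the moulting list, myrf-1, 1 of 11 genes (9.09%), had summits 1716 and 1226 bp upstream at 112 and 91.7. Single members, in neither own list, stood past the 3′ ends of lin-42, cgh-1 and snt-1. That of lin-42, a Period-related timing gene and 1 of 9 in its list (11.1%), was at 82.0. It lay 19415 bp from the 5′ end, and its window was wholly masked as repeat. That of cgh-1, a germline RNA helicase gene and 1 of 22 in its list (4.55%), was at 70.6. That of snt-1, the synaptotagmin gene and 1 of 15 pan-neuronal genes (6.67%), was at 92.5, 11024 bp from the 5′ end. No gene of the hypodermis and seam, neuron identity, muscle or pharynx lists, of 14, 21, 15 and 10 autosomal genes, was nearest to a member. With lists this short, beside a share of 3.04%, the absence says little.

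Members were spread over many genes. In all, 525 protein-coding genes were nearest to a member, 441 of them to 1, 70 to 2 and 14 to 3 or more. The 4 genes nearest to 4 members were nob-1, klf-1, cmd-1 (calmodulin) and mrpl-20, a mitochondrial ribosomal protein gene; klf-1, cmd-1 and mrpl-20 were each also a cluster of 4 with summits within 2 kb of the next. Upstream of klf-1, summits stood at 5609, 5119, 4420 and 2779 bp, with signal values of 231, 93.6, 488 and 128. Upstream of cmd-1 the strongest stood at 4788 bp, at 313 (139 in replicate 1 and 175 in replicate 2), and lay inside the lincRNA gene linc-128. At mrpl-20 the 2 stronger summits had 132 and 91.9, and each had a weak summit beside it, 199 bp away at 6.45 and 220 bp away at 5.54. The klf-1 set thus has 4 peaks with a signal value above 50, and the mrpl-20 set 2.

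**Figure D3:**
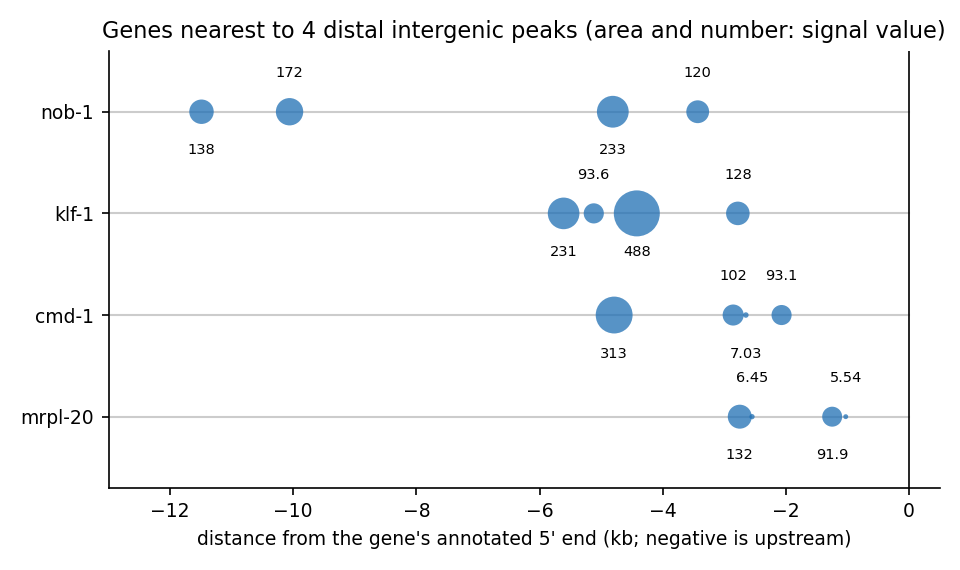
Distal intergenic peaks of the 4 genes nearest to 4 of them, by distance from the gene's annotated 5′ end in kb (x axis, negative upstream). The area of each point and the number beside it give the signal value; the nob-1 set falls into a near and a far pair, and the sets of cmd-1 and mrpl-20 include summits below 10.

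There were 12 clusters of 3 or more members with summits within 2 kb of the next, holding 39 members. The clusters of 3 lay near tmem-189, ins-13, mak-1, gldi-3 and mtrr-1, din-1, ppk-2, C46C2.7 and wnk-1, lpin-1 and letm-1, and ret-1. All 3 summits near ins-13 also lay within 300 bp of the snRNA genes sls-2.2 or sls-2.3. Their highest signals were 317 at C46C2.7, 246 at ret-1, the reticulon gene, and 235 at mtrr-1. A further 68 groups were pairs, and 452 members stood alone by this measure. Another summit of the list lay within 1 kb of 142 members (22.6%, 19.4 to 26.1), against 24.1% of all peaks.

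Weak members stood close to another summit. The signal value was under 50 in 30 members, from 2.34 to 46.1, and the other 597 started at 60.0. Each of the 30 had another summit 199 to 228 bp away, with a median signal of 107. Across the whole list, 172 of the 174 peaks under 50 had a summit within 250 bp. Without them 8 clusters of 3 or more remained, and 14.4% of members had a summit within 1 kb. The overlapping intervals take their replicate values from the same ranked peaks, so the replicates do not separate such pairs.

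The sequence under the members was richer in G and C than its surroundings. In windows of 101 bp around the summit, median GC content was 39.6%, against 33.7% in windows centred 400 bp to each side, 33.7% in all qualifying sequence cut into tiles of the same length, and 41.6% under all peaks. Bases masked as repeats in the reference made up 22.7% of member windows on average, against 41.7% of the windows beside them and 19.3% under all peaks. No base was masked in 201 members (32.1%), against 37.4% of all peaks. Motif counts depend on base content, and its part in the shares that follow was not tested.

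GATA matches were the most frequent motif under the members. TGATAA, with T or A in its first place and on both strands, matched in 235 of 627 windows (37.5%, 33.7 to 41.4), against 13.8% (11.9 to 15.8) of the 1242 windows beside them, 14.4% of 184572 tiles and 35.4% of all peaks. Promoter peaks had 36.5%, so GATA matches were about as frequent in both places. The closest match stood at a median of 16.5 bp from the summit, 158 of the 235 had one within 25 bp, and 75 had 2 or more. The share rose with signal, from 23.0% and 30.3% in the lower quartiles of the list to 41.9% and 51.7% in the upper. It was 45.8% of members in both own lists and 31.9% of the rest. Distance made little difference, with 38.0% at 1 to 2 kb from a 5′ end and 37.3% at 5 to 10 kb.

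The E-box stood out more against the surroundings, though it was rarer. CACGTG matched in 50 windows (7.97%, 5.98 to 10.4), against 1.53% (0.923 to 2.38) of the windows beside them, 1.42% of tiles and 5.39% of all peaks. Among promoter peaks it was 5.44%. GAGAGA matched in 94 (15.0%, 12.3 to 18.0), against 5.48% beside, 5.59% of tiles and 13% of all peaks. The Meis form TGACAG matched in 49 (7.81%, 5.84 to 10.2), against 2.82% beside, 3.40% of tiles and 5.73% of all peaks. The list's share lay inside the members' interval for GAGAGA and just below it for the E-box and Meis.

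Matches to the posterior Hox form differed less from the windows beside them. The strict form, TTTATGA with A or G in its last place, matched in 54 windows (8.61%, 6.54 to 11.1), against 5.64% (4.42 to 7.07) beside them, 5.68% of tiles and 8.43% of all peaks. The loose form, which includes the strict one, matched in 24.1% (20.8 to 27.6), against 19.1% beside, 16.4% of tiles and 22.6% of all peaks. The intervals of members and of the windows beside them overlap for both forms. The share with a strict match was 4.61% in the lowest quartile of signal and 14.0% in the highest. The Hox and PBC form, TGATTAAT with A, G or T as its sixth base, matched in 27 windows (4.31%, 2.86 to 6.20), against 2.17% beside, 2.05% of tiles and 3.54% of all peaks. Both a GATA and a strict posterior Hox match stood in 26 windows, and 198 (31.6%) held none of the motifs searched.

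**Figure D4:**
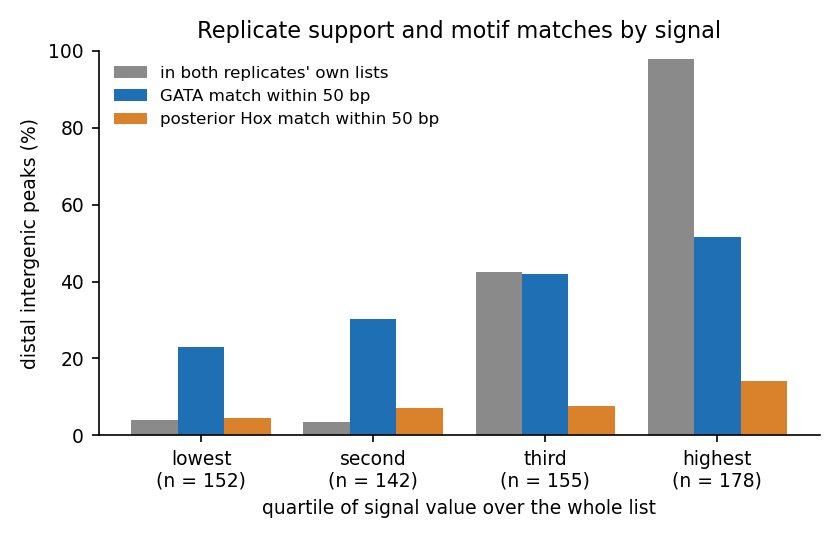
Percentage of distal intergenic peaks (y axis, from 0) that lie in both replicates' own lists (grey), hold a GATA match (blue) or hold a strict posterior Hox match (orange) within 50 bp of the summit, by quartile of the whole list's signal values (x axis, with the number of members). Each share is higher in the highest quartile than in the lowest.

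AT-rich runs were scarcer under the summits than beside them. TATAAA matched in 6.86% (5.01 to 9.13) of member windows, against 13.3% beside, 12.1% of tiles and 9.05% of all peaks. Runs of 8 T matched in 5.10% (3.52 to 7.13), against 14.4% beside, 13.5% of tiles and 4.92% of all peaks. Member windows had the higher GC content, and its part in the difference was not tested.

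**Figure D5:**
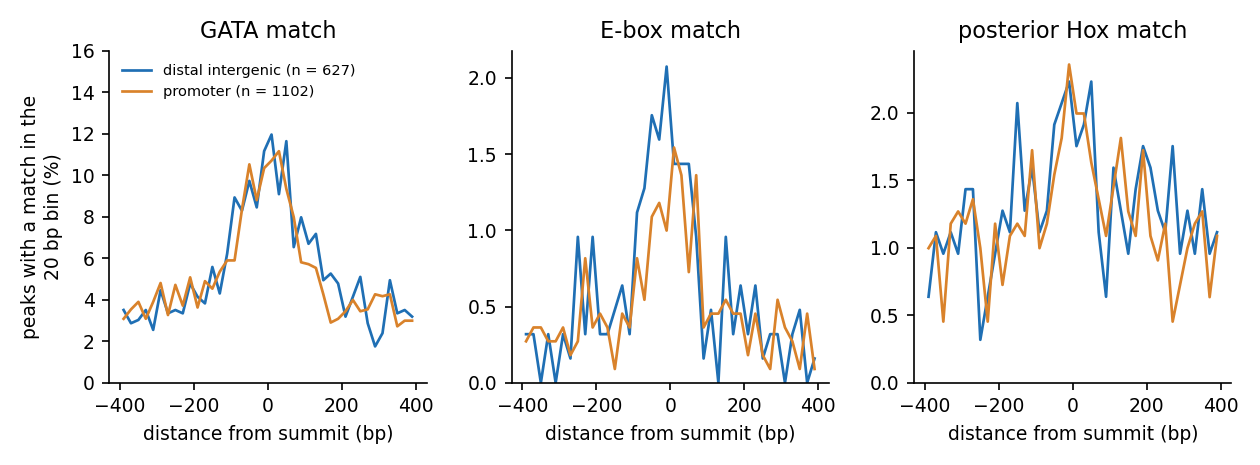
Percentage of peaks with a match (y axis, scaled separately in each panel) in each 20 bp bin by distance from the summit in bp (x axis), for GATA, the E-box and the strict posterior Hox form. Blue marks the 627 distal intergenic peaks and orange the 1102 autosomal promoter peaks; GATA reaches 12.0% of distal peaks just after the summit against 3.51% in the outermost upstream bin, and the posterior Hox profile is uneven, with 2.23% just before the summit.

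Non-coding genes lay close to some members, since the selection removed only tRNA genes. Any of 7 classes of non-coding gene or pseudogene was within 300 bp of 139 members (22.2%, 19.0 to 25.6), against 20.5% of all peaks. The 20 members near snoRNA genes (3.19%, 1.96 to 4.88, against 2.39% of all peaks) had a median signal of 170, and 13 were in both own lists. In 12 of the 20 the summit lay upstream of the snoRNA gene, 5 to 88 bp from its 5′ end, and 1 held a GATA match. The highest, 64 bp upstream of W03C9.9, had 298 (116 in replicate 1 and 180 in replicate 2). The snoRNA genes named here, and the other non-coding genes that follow, were chosen after their values were seen.

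Summits near microRNA genes were few. Of the 7 (1.12%, against 0.674% of all peaks), that at cel-mir-51 had 183 (107 and 75.1) with the summit 69 bp upstream, and that at cel-mir-60 had 171 (84.9 and 92.8) with the summit 72 bp upstream. The summit 270 bp upstream of cel-mir-80 had 151 (63.9 and 74.3) and was 11491 bp from any protein-coding 5′ end. The snRNA class held 7 members (1.12%, against 1.04%), among them summits at sls-2.2, sls-2.3, sls-2.12 and sls-2.10, genes of the spliced leader SL2, whose RNA is added to the messages of downstream genes in operons. The 2 at sls-2.2 had 216 and 156 and share their replicate values (103 and 103). With the summit at sls-2.3 they are the ins-13 cluster given above.

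The other classes held most of the rest. Pseudogenes were within 300 bp of 28 members (4.47%, 2.99 to 6.39), against 1.69% of all peaks, and lincRNA genes of 13 (2.07%, 1.11 to 3.52), against 0.843%. The piRNA genes had 17 (2.71%, 1.59 to 4.31), against 1.6%, and other ncRNA genes 72 (11.5%, 9.09 to 14.2), against 14.8%. Inside such a gene stood 11 summits for pseudogenes, 8 for lincRNA genes and 28 for other ncRNA genes. Intergenic here therefore means outside protein-coding genes only.

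The 5 farthest from any protein-coding gene body were those assigned to irld-18, C30G12.2, ZC190.4, asp-13 and C30G12.4, with signal values from 110 to 403. The irld-18 summit stood 13438 bp away at 403 (206 in replicate 1 and 186 in replicate 2), and that of C30G12.2 12943 bp away at 263 (120 and 131). The others stood 10126 to 10777 bp away, at 115 (ZC190.4), 229 (asp-13) and 110 (C30G12.4). The ZC190.4 and asp-13 summits lie in the same divergent gap, 1689 bp apart, and both held a strict posterior Hox match.

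Some members shared sequence with each other. The 41 bp around the summit occurred more than once in the genome for 29 members (4.63%, 3.12 to 6.58), against 4.44% of all peaks and 2.00% (1.26 to 3.01) of promoter peaks, with up to 53 copies. Reads from such copies may not be placed uniquely, and how the authors treated them is not given in the sources used here. By a looser measure, a run of 25 bp shared with another member within 201 bp around the summit, 53 members (8.45%) fell into 19 families, of which the largest had 5. Those 5, at K07D4.2 (568), Y116A8A.150 (371), zip-11 (329), C46C2.7 (317) and ari-1.4 (217), shared a run of 42 bp and were all in both own lists. A family of 4 included the K08F11.1 summit at 660 and another of that gene at 313. In some families of 3 or 4, the run common to all was only 0 to 21 bp, so 25 bp was shared between some of their members only. The share of all peaks by this looser measure was not computed, so whether 8.45% is particular to members is not known.

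The pair below is shown as an example of sequence shared between strong members, and was chosen after its values were seen. The summits assigned to Y43F8B.24 and C25F9.15 had signal values of 431 (230 in replicate 1 and 211 in replicate 2) and 295 (130 and 156). Each sequence is the plus strand of ce11, at chrV:19459599-19459736 and chrV:19419401-19419545. Capitals mark the run of 98 bp shared within the windows of 201 bp. The run begins at the edge of the Y43F8B.24 window, 100 bp before the summit, and bases beyond that edge were not compared. The 41 bp around each summit occurs once in the genome.
Y43F8B.24: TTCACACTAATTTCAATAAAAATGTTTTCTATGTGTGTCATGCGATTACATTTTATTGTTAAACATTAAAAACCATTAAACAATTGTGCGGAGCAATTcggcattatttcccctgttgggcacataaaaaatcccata
C25F9.15: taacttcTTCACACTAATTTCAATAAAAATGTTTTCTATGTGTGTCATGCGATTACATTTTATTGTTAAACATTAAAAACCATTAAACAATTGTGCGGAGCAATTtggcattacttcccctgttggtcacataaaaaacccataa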

How the data were processed

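ChIP-seq peak lists of 2 replicates on assembly ce11 were analysed, per the labels; what aligned the reads and called the peaks is not given in the sources used here. A signal value is the value given under that name for each peak in the authors' deposited lists, in a scaling not stated. The score, scaled by the authors from the irreproducible discovery rate, was at least 830 in the deposited thresholded lists and was not used otherwise. The −log10 q value of the authors' deposited lists served only as another ranking.

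Members were picked from the 3559 peaks of the series-wide list. The own lists held 1728 peaks in replicate 1 and 2000 in replicate 2. Genes came from Ensembl release 115 and sequence from the RefSeq genome of WBcel235. A replicate's value at a peak is the highest signal of any ranked peak overlapping it by 1 bp. Control windows met no summit window. The location rule, overlap and motif counts were tested on simulated data. Intervals are exact binomial (Clopper-Pearson) at 95%. Scripts ran in Python 3.11.15 with pandas 2.3.3 and numpy 2.4.6; intervals came from scipy 1.17.1 and plots from matplotlib 3.10.9.

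The members, gene lists and motifs were chosen with earlier results of these data known. Named were the 20 strongest members in both own lists, every member nearest a Hox, cofactor, tail or rectal gene, up to 4 per other list, the 5 farthest from a gene, clusters of 3 or more, and 3 on each side of each limit. The alternatives were the conservative list, each replicate's own list, other promoter, tRNA, motif and overlap limits, RefSeq genes, and leaving out weak peaks or those near small RNA genes. Leaving out repeated sequence was added after seeing the data.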

Additional observations from a re-analysis of the deposited data

How the results depend on the processing

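Over 13 results and their alternatives, 140 values were computed, of which 27 moved and 0 changed direction. Most of these results are counts, shares or medians, which have no direction to change. The other 113, apart from a ranking by q value, stayed within the interval of the value reported or, for counts, within 1.5 times it. That ranking gave a difference in median between members and other peaks of 0.0202 in −log10 q. By signal value the difference was 3.55, so the units differ and only the sign can be compared. With a promoter window from 500 bp upstream there were 824 members, which is within that limit, or 30.3% of autosomal peaks, at a median of 1715 bp from a 5′ end; from 2000 bp upstream there were 404, or 14.9%, at 3016 bp. Taking each replicate's own list, that is without replicate 1 or without replicate 2, gave 330 to 370 members and a share of autosomal peaks of 24.5% to 25.4%. The median distance was 2116 to 2187 bp, the masked share 19.4% to 20.5%, members with another summit within 1 kb 12.7% to 15.9%, and Hox, cofactor and tail genes beside a member 2 to 3. The ratio of GATA shares in member windows to those beside them, 2.72 as reported, was 2.92 to 3.11 in these lists, and that of the strict posterior Hox form, 1.53 as reported, 1.67 to 1.99. The GATA ratio was 3.01 in the conservative list, 3.29 in windows of 51 bp and 2.02 in windows of 201 bp, and that list gave 3 Hox, cofactor and tail genes. Members in both own lists were 31.6% with overlap of 50% of both intervals, against 28% of all peaks by the same rule. Without peaks of signal under 50, members with a summit within 1 kb were 14.4%, and counted within 500 bp or 2 kb they were 12% or 39.6%. Members at snoRNA genes were 0.797% counted inside the gene only, and 0% by construction without those near small RNA genes. The causes of the other changes were not tested. Read depth is unknown and limits what can be said of any weak member.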
